A study of Saccharomyces cerevisiae and Saccharomyces cerevisiae x Saccharomyces paradoxus with 20 samples.

Results

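Allele-specific chromatin accessibility was measured in the diploid hybrid of DBVPG1373, a wine strain of Saccharomyces cerevisiae, with CBS432, a strain of its sister species Saccharomyces paradoxus. The 2 FAIRE libraries of this hybrid, of 20 samples in the series, were taken by their labels. Each library gave a count for the DBVPG1373 allele and a count for the CBS432 allele in each of 3498 nucleosome-free regions (NFRs), and all 3498 were analysed. The tested quantity was the cis effect, which is the log2 of the DBVPG1373 allele over the CBS432 allele within a library. It was also set beside the haploid parents, DBVPG1373 and CBS432, and beside the diploid hybrid of CBS432 with a second S. cerevisiae strain, UWOPS05_217_3, a wild isolate, each with 2 FAIRE libraries. All cultures were grown in YEPD, a rich glucose medium, to mid-log phase, and fixed with 1% formaldehyde. Libraries of a strain are replicates by their labels. Whether the 2 hybrid cultures came from separate matings is not given in the sources used here. The p-values measure the spread between these libraries only, and the spread of each NFR was estimated in part from all NFRs. The labels list the CBS432 haploids under S. cerevisiae while the study and the hybrids' labels make it S. paradoxus. No sample carried an engineered mutation or a treatment by the labels.

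FAIRE separates DNA that is not crosslinked to protein from the rest of a fixed chromatin extract, so DNA free of nucleosomes is recovered in excess. In yeast the NFR lies just upstream of the transcription start, where sequence-specific factors, chromatin remodelers and stiff A-rich DNA keep nucleosomes away and where the transcription machinery assembles. In a hybrid, both alleles sit in the same nuclei and meet the same factors, so a difference between them reads out sequence carried on the chromosome itself, called a cis effect. A change in the allele ratio between the parents and the hybrid reads out diffusible factors, called a trans effect. In a culture, the share of cells with an open NFR and the degree of opening in each cell cannot be told apart.

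The DBVPG1373 allele had 2036883 and 2032059 counts in libraries 1 and 2, and the CBS432 allele had 1892508 and 1898556. The DBVPG1373 allele thus took 51.8% of the counts in library 1 (95% Wilson interval 51.8 to 51.9) and 51.7% in library 2 (51.6 to 51.7), intervals that cover counting error only. The median NFR had 335 and 357.5 counts for the DBVPG1373 allele and 312 and 336 counts for the CBS432 allele. Both alleles were present on each of the 16 chromosomes, with 49.3% to 57.7% of the counts from DBVPG1373. The share was highest on chromosome I, at 57.7% and 55.7%, and lowest on chromosome XVI, at 49.6% and 49.3%. The libraries differed by more than counting error, since chi-square over its degrees of freedom was 21.6 for the DBVPG1373 allele and 20.2 for the CBS432 allele. Errors were therefore taken from the spread between the libraries, with the spread of each NFR drawn toward that of all NFRs. The NFRs had a mean width of 253.9 bp and a median of 234 bp, and 206 of them lay within 300 bp upstream of no start codon. Totals were 2561228 to 3044493 in the 4 haploid libraries and 1339393 to 1644236 per allele in the UWOPS05_217_3-CBS432 hybrid.

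The alleles differed in accessibility at 1043 of 3498 NFRs (29.8%), each past an adjusted p of 0.05 in edgeR's quasi-likelihood test with the library as a block (called, below). The DBVPG1373 allele was more accessible at 613 of them (17.5% of all NFRs) and the CBS432 allele at 430 (12.3%). The median called NFR had a log2 difference of 1.12 in size, or 2.18-fold, and 624 of the 1043 differed by more than 1 on that scale. The median was 2.21-fold toward DBVPG1373 and 2.14-fold toward CBS432, so the sizes were close in both directions. A log2 difference of more than 2 was reached by 99 calls, 55 toward DBVPG1373 and 44 toward CBS432. All 1043 called NFRs had the same direction in both libraries, as the test favours, against 2716 of all 3498 NFRs (77.6%). Across NFRs, which are not independent replicates, the log2 ratios of the libraries correlated with Pearson's r of 0.705 (Spearman's rho 0.704), and with 0.761 over the 3010 NFRs that averaged 100 counts or more.

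The balance of the directions rested on how the alleles were scaled. With the total of both alleles as the library size, the median of all NFRs was 0.09 on the log2 scale and 58.8% of the calls were toward DBVPG1373. Scaled by TMM factors, which bring that median to 0.00, the calls were 525 toward DBVPG1373 and 544 toward CBS432, and scaled by each allele's own total they were 503 and 529. DESeq2 gave 463 toward DBVPG1373 and 447 toward CBS432. With library 1 left out, 412 NFRs were called, and with library 2 left out, 479, in fits where the other hybrid supplied the spread and which gave 1012 calls with both libraries. Cis effects named below that were no longer called without a library are given with that value.

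**Figure D1:**
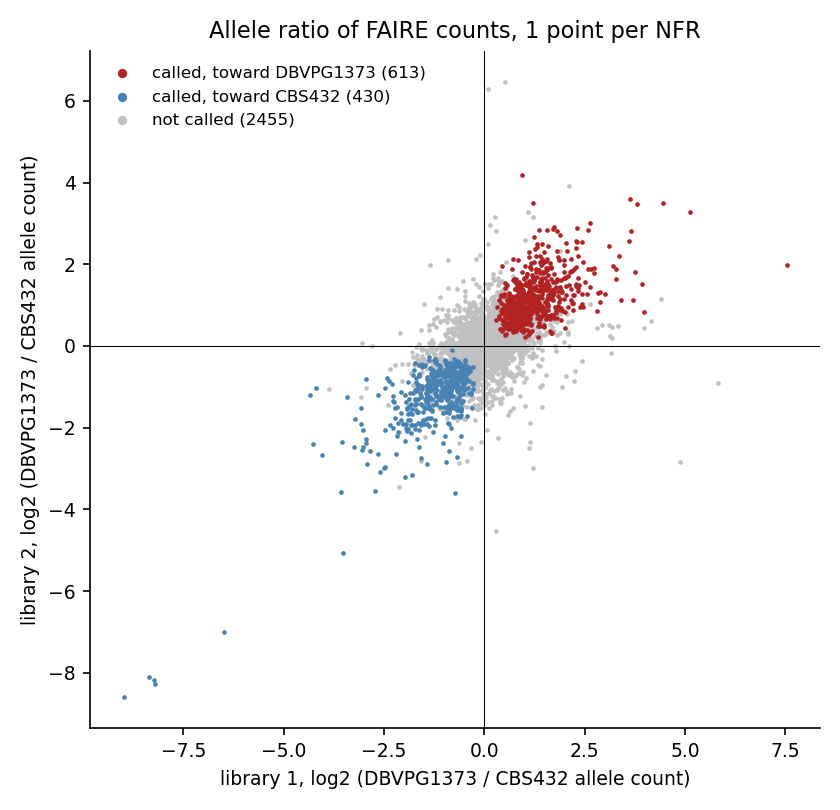
Log2 ratio of the DBVPG1373 allele to the CBS432 allele in library 1 (x axis) and library 2 (y axis), 1 point per NFR. The 613 NFRs called toward DBVPG1373 lie in the upper right and the 430 called toward CBS432 in the lower left, while the 2455 others surround zero.

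Toward DBVPG1373, the largest difference among NFRs that averaged 100 counts or more was upstream of YPC1, an alkaline ceramidase of sphingolipid metabolism (chromosome II, 595796-596025, in the files' sacCer3 coordinates). The DBVPG1373 allele had 1172 and 870 counts there, against 53 and 77 for the CBS432 allele, a log2 ratio of 3.97 (SE 0.31, adjusted p = 3.65e-05) or 15.6-fold. The NFR of YOR008C-A (chromosome XV, 343215-343355) had 242 and 358 counts for DBVPG1373, against 19 and 29 for CBS432, a log2 ratio of 3.64 (SE 0.42, adjusted p = 0.000253). Both CBS432 counts were low in both NFRs. Choosing NFRs by size all but fixes that the alleles' counts do not overlap, which held for 2226 of all 3498 NFRs (63.6%). At CUS1, whose product belongs to the U2 snRNP of the spliceosome (chromosome XIII, 751194-751381), the counts were 2286 and 2339 for DBVPG1373, against 368 and 291 for CBS432, a log2 ratio of 2.82 (SE 0.19, adjusted p = 1.26e-05). At PHO87, a low-affinity phosphate transporter (chromosome III, 197336-197540), they were 1798 and 1474 for DBVPG1373, against 210 and 268 for CBS432, with a log2 ratio of 2.78 (SE 0.23, adjusted p = 3.86e-05). MET10, the alpha subunit of sulfite reductase in sulfate assimilation (chromosome VI, 212939-213057), had 510 and 646 counts for DBVPG1373, against 103 and 87 for CBS432, with a log2 ratio of 2.60 (SE 0.30, adjusted p = 0.000257). The remaining NFRs among the 10 largest were those of DFP1 (log2 3.08), of IMD4, an IMP dehydrogenase, with SPC2, a signal peptidase subunit (2.78), of VAN1, a Golgi mannosyltransferase (2.71), of APL5, a subunit of the AP-3 adaptor (2.69), and of BCK1, a kinase of the cell wall integrity pathway (2.57). APL5 was the least even of them, with 396 and 487 counts for DBVPG1373, against 29 and 139 for CBS432.

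Toward CBS432, the largest difference among NFRs with counts on both alleles was upstream of BET1, a SNARE of transport from the endoplasmic reticulum to the Golgi (chromosome IX, 348687-348758). The DBVPG1373 allele had 40 and 22 counts, against 461 and 751 for the CBS432 allele, a log2 ratio of -4.26 (SE 0.41, adjusted p = 0.000114), or 19.1-fold lower on DBVPG1373. YBL086C had 16 and 56 counts for DBVPG1373, against 273 and 360 for CBS432, with a log2 ratio of -3.30 (SE 0.46, adjusted p = 0.000678). The NFR shared by CTF18, a clamp loader subunit of sister chromatid cohesion, and SEC14, a phosphatidylinositol transfer protein, had 23 and 103 counts for DBVPG1373, against 448 and 546 for CBS432, with a log2 ratio of -3.23 (SE 0.44, adjusted p = 0.000649). The DBVPG1373 counts of this NFR were uneven between the libraries, and both stayed under both CBS432 counts. RPN9, a lid subunit of the proteasome (chromosome IV, 1321933-1322027), had 20 and 37 counts for DBVPG1373, against 154 and 278 for CBS432, with a log2 ratio of -2.92 (SE 0.44, adjusted p = 0.00105). The NFR between URA7, a CTP synthase, and MRPL16, a protein of the mitochondrial ribosome, was the most covered of the set, with 469 and 372 counts for DBVPG1373, against 2653 and 2946 for CBS432. Its log2 ratio was -2.74 (SE 0.18, adjusted p = 1.26e-05). OTO1 (-2.87), the histone chaperone gene RTT106 (-2.87), SGD1 (-2.79) and the NFR of PRP19, a splicing factor, with GRC3, a polynucleotide kinase (-2.74), made up the rest. PSY3, a member of a complex of recombinational repair, lay under the count minimum, with 6 and 12 counts for DBVPG1373, against 77 and 149 for CBS432, and a log2 ratio of -3.64 (SE 0.57, adjusted p = 0.00129).

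**Figure D2:**
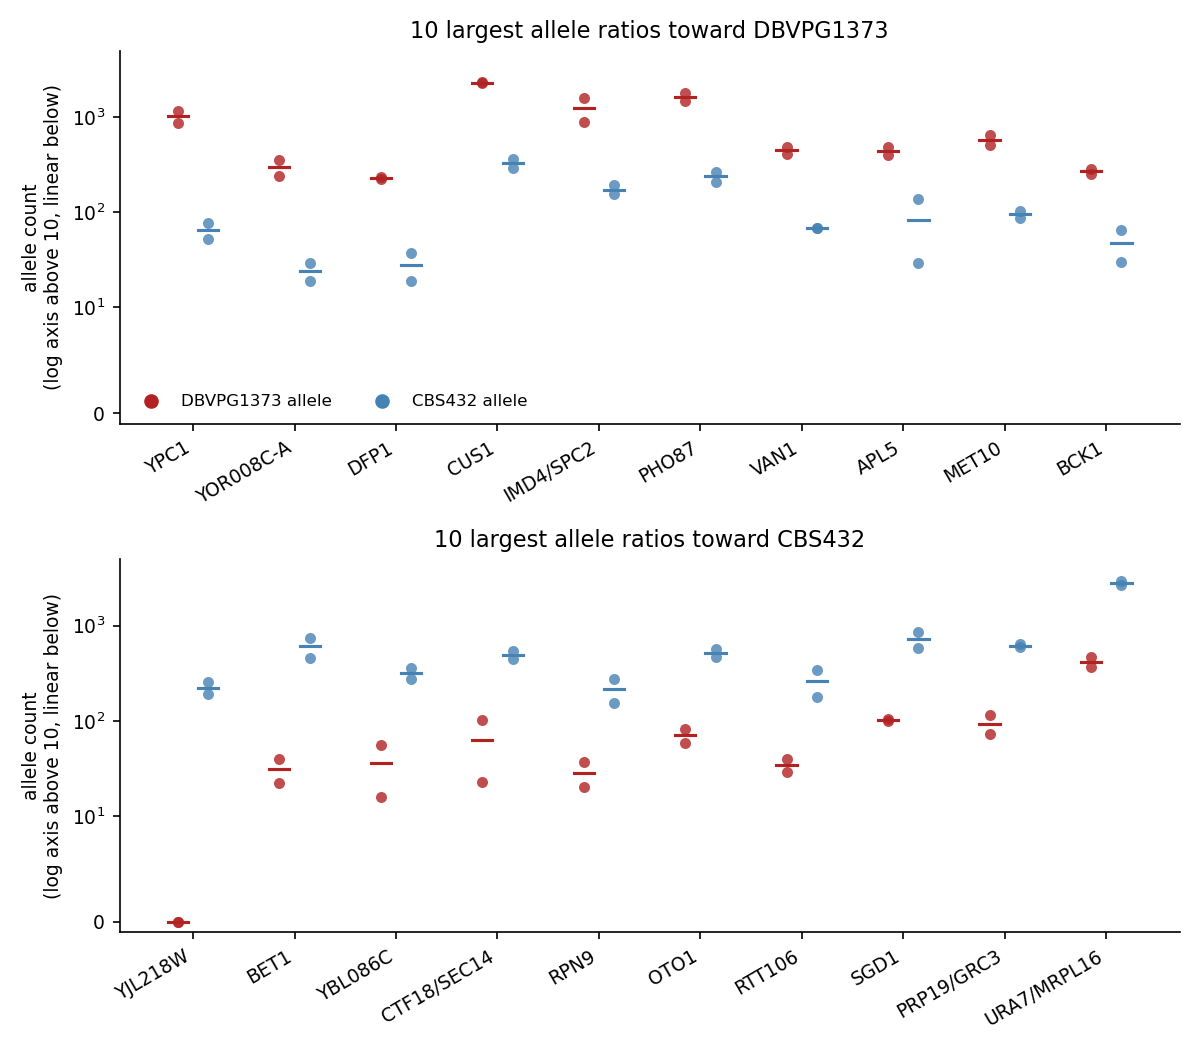
Counts of the DBVPG1373 allele (left of each pair) and of the CBS432 allele (right) in both libraries, at the 10 NFRs with the largest cis effect in each direction, on an axis that is logarithmic above 10 counts and linear below. Points are libraries and dashes their mean. YPC1 is at 1172 and 870 against 53 and 77, and YJL218W at 0 and 0 against 253 and 193.

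At 5 NFRs the DBVPG1373 allele had no count in either library while the CBS432 allele had more than 3 counts in each, and no NFR showed the opposite. The study kept only NFRs that aligned to a single region of the other species, so NFRs that lack CBS432 sequence would not be in the set. The part of this filter in the lack of opposite cases was not tested. As a set, these 5 were put together after their values were seen. MAL11 and the NFR next to THI5 were named only then. YJL218W was also among the 10 largest, and MAL13, YIL014C-A and YJL218W were among the 5 largest called differences between the hybrids. YJL218W (chromosome X, 21836-21979) had 0 and 0 counts for DBVPG1373, against 253 and 193 for CBS432. A floor of 3 counts over both libraries, which covers counting error only, made it at least 149-fold lower on DBVPG1373. The folds given next rest on the same floor. YIL014C-A (chromosome IX, 325510-325655) had 0 and 0 counts for DBVPG1373, against 146 and 155 for CBS432, and the NFR next to THI5, a gene of thiamine synthesis (chromosome VI, 15426-15498), had 0 and 0, against 163 and 138. Each was at least 100-fold lower on DBVPG1373. The other two belonged to the MAL1 locus on chromosome VII, whose genes serve maltose use. MAL13, the activator of the locus (1070179-1070306), had 0 and 0 counts for DBVPG1373, against 149 and 145 for CBS432, which is at least 98-fold lower, and MAL11, a maltose transporter (1075771-1075823), had 0 and 0, against 44 and 64, at least 36-fold lower. With DESeq2, the NFRs of MAL13 (adjusted p = 0.055), MAL11 (adjusted p = 0.115) and THI5 (adjusted p = 0.055) were not called.

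The haploid DBVPG1373 libraries had 0 and 0 counts at all 5 of these NFRs too, so a count of 0 accompanied this strain in both settings. In the UWOPS05_217_3-CBS432 hybrid the S. cerevisiae allele was counted at each of them, for example 516 and 221 counts at MAL13 and 320 and 347 at YIL014C-A. Of the nearest NFRs on either side, some had counts on the DBVPG1373 allele. MAL13 and MAL11, both at 0, were neighbours, and AQY3, the neighbour of the THI5 NFR, had 12 and 6 counts for DBVPG1373, against 33 and 12 for CBS432. MNT3, beside YIL014C-A, had 181 and 534 counts for DBVPG1373, against 143 and 218 for CBS432. ZUO1, on the other side of MAL13, had 264 and 268 counts for DBVPG1373, against 703 and 668 for CBS432, and OPT1, the nearest NFR to that of YJL218W, had 936 and 1092, against 1162 and 1080. Whether the DBVPG1373 sequence is missing there, is too diverged for the reads to map or is closed was not tested.

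The share of called NFRs moved with the count behind them. Of the 488 NFRs with a mean count under 100, 11.1% were called, against 21.4% of 1060 with 100 to under 300, 34.3% of 1455 with 300 to under 1000 and 53.1% of 495 with at least 1000. The size of the difference over all NFRs moved little in the same order, with medians of 0.61, 0.56, 0.51 and 0.50 on the log2 scale. Among called NFRs alone the median size fell with the count, at 2.15, 1.49, 1.03 and 0.81. Among NFRs of at least 350 bp, 41.8% of 717 were called, against 28.2% of 1894 with 150 to under 350 bp and 23.6% of 887 under 150 bp. The widest class also had the highest median count, 934, against 364.25 and 121.25, and the part of depth in this order was not tested. NFRs between 2 divergent genes were called in 32.2% of 652 cases, NFRs upstream of genes on 1 strand in 29.9% of 2640, and NFRs with no paired gene in 20.9% of 206. Within 20 kb of a chromosome end 14 of 54 NFRs (25.9%) were called, 7 in each direction.

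Genes were grouped by function to see which promoters carried the differences, and each NFR was paired with the genes whose 300 bp upstream of the start codon it overlapped. The cytosolic ribosomal proteins had 98 NFRs, of which 55 (56.1%) were called, 27 toward DBVPG1373 and 28 toward CBS432. Their median count was 1668, against 347 for all NFRs, and 53.1% of all NFRs at the level of 1000 or more were called. The list's median log2 ratio was 0.04, against 0.09 over all NFRs, so promoters of the same family moved in both directions. The balance rested on the scaling, at 22 and 33 with TMM factors or own totals and 21 and 28 with DESeq2. The list's medians were then -0.06, -0.06 and -0.05. Without library 1 the calls were 15 toward DBVPG1373 and 17 toward CBS432, and without library 2 they were 12 and 18. RPS16A had 2074 and 1442 counts for DBVPG1373, against 7942 and 5927 for CBS432, a log2 ratio of -1.99 (SE 0.11, adjusted p = 7.67e-06). RPS4B had 6745 and 6048 counts for DBVPG1373, against 2423 and 1234 for CBS432, a log2 ratio of 1.88 (SE 0.17, adjusted p = 9.13e-05). RPL14B had 2786 and 3086 counts for DBVPG1373, against 1183 and 1002 for CBS432, with a log2 ratio of 1.43 (SE 0.15, adjusted p = 0.000187). The list also took in RPP1 by its name, a subunit of RNase P and no ribosomal protein, which was called toward CBS432.

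Most yeast ribosomal proteins are made from a pair of paralogous genes. In 32 pairs the copies had separate NFRs, a set chosen after the values were seen. They used 63 NFRs, since RPS16B and RPL13A share 1 that counts in both of their pairs. Both copies were called in 10 pairs, in opposite directions in 7 and in the same direction in 3 (RPL16, RPS16 and RPS28), while 17 pairs had 1 called copy and 5 had none. Without library 1 both copies were called in 3 pairs (RPL17, RPL36 and RPS4, each opposite), and without library 2 in 4 (RPL12, RPL22 and RPS4 opposite and RPS28 the same). With TMM factors or own totals the pairs were 6 opposite and 6 the same. RPL12A had 491 and 468 counts for DBVPG1373, against 167 and 106 for CBS432, with a log2 ratio of 1.84 (SE 0.30, adjusted p = 0.00164). RPL12B had 431 and 486, against 1145 and 886, with a log2 ratio of -1.14 (SE 0.22, adjusted p = 0.0041; -0.87 and adjusted p = 0.153 without library 1). RPL36A had 1232 and 1630 counts for DBVPG1373, against 833 and 807 for CBS432, with a log2 ratio of 0.79 (SE 0.19, adjusted p = 0.0104; 0.56 and adjusted p = 0.281 without library 2), while RPL36B had 1347 and 966, against 3481 and 2678, with -1.42 (SE 0.14, adjusted p = 0.000114). RPS4A stood opposite to RPS4B, with 2716 and 2373 counts for DBVPG1373, against 4918 and 4293 for CBS432, and a log2 ratio of -0.86 (SE 0.11, adjusted p = 0.000488). The coding sequences of such copies are nearly alike. The study kept only NFRs that aligned to a single region and to which simulated reads mapped back, and whether reads were still shared between copies was not tested here.

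Among the NFRs of proteasome genes, 12 of 26 (46.2%) were called, 5 toward DBVPG1373 and 7 toward CBS432, against 29.8% of all NFRs, and 9 and 7 were called without library 1 or 2. Their median count was 648, against 347 for all NFRs. The strongest was RPN9, given above. PRE2, a catalytic core subunit that shares its NFR with RPL11A, had 2166 and 1806 counts for DBVPG1373, against 5323 and 5392 for CBS432, with a log2 ratio of -1.44 (SE 0.12, adjusted p = 4.67e-05). PRE1, another core subunit, went the other way with 931 and 887 counts for DBVPG1373, against 425 and 306 for CBS432, and a log2 ratio of 1.33 (SE 0.23, adjusted p = 0.00198). Mitochondrial ribosomal protein genes were called at 16 of 50 NFRs (32%), 8 in each direction, and at 8 or 6 without library 1 or 2.

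Genes of the respiratory chain were called at 14 of 30 NFRs (46.7%), 11 toward DBVPG1373 and 3 toward CBS432, against 29.8% of all NFRs (17.5% and 12.3%). Their median log2 ratio was 0.34 and their median count 590, against 347 for all NFRs. The split was 9 and 4 with TMM factors, 8 and 4 with each allele's own total and 8 and 3 with DESeq2, and without library 1 it was 4 and 2, without library 2 it was 3 and 2. ATP18, of the ATP synthase, had 1584 and 1413 counts for DBVPG1373, against 313 and 551 for CBS432, with a log2 ratio of 1.84 (SE 0.25, adjusted p = 0.000566). QCR10, of the cytochrome bc1 complex, had 987 and 1151, against 470 and 403, with a log2 ratio of 1.29 (SE 0.22, adjusted p = 0.00179). COX13, of cytochrome c oxidase, was the largest in the opposite direction, with 280 and 267 counts for DBVPG1373, against 1083 and 1069 for CBS432, and a log2 ratio of -1.98 (SE 0.22, adjusted p = 0.000223).

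Genes of ergosterol synthesis, the yeast sterol pathway, were called at 8 of 20 NFRs (40%), 7 toward DBVPG1373 and 1 toward CBS432, against 29.8% of all NFRs, with a median count of 435, against 347 for all NFRs. Under the TMM and own-total scalings the split was 6 and 2, with DESeq2 5 and 1, and without library 1 or 2 it was 4 and 0 or 3 and 0. HMG2, an HMG-CoA reductase, had 493 and 322 counts for DBVPG1373, against 89 and 77 for CBS432, with a log2 ratio of 2.27 (SE 0.33, adjusted p = 0.000934). HMG1, the other reductase gene of the list, was not called, with 1254 and 753, against 868 and 688 (log2 0.33, adjusted p = 0.231). ERG10, the thiolase that opens the pathway, had 320 and 447, against 70 and 125, with a log2 ratio of 2.01 (SE 0.33, adjusted p = 0.00168). ERG20, the farnesyl diphosphate synthase, whose NFR also serves SET2, had 1253 and 1508 counts for DBVPG1373, against 361 and 557 for CBS432, with a log2 ratio of 1.61 (SE 0.20, adjusted p = 0.000375). ERG13, the HMG-CoA synthase between ERG10 and HMG2 in the pathway, was the exception, with 19 and 36 counts for DBVPG1373, against 98 and 139 for CBS432, and a log2 ratio of -2.14 (SE 0.50, adjusted p = 0.00928). It was not called without library 1 (adjusted p = 0.101) or library 2 (adjusted p = 0.0525).

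Mating and haploid-specific genes, most of which a diploid of both mating types keeps off, were called at 8 of 24 NFRs (33.3%), 7 toward DBVPG1373 and 1 toward CBS432, against 29.8% of all NFRs. This split also depended on the scaling, at 5 and 3 with TMM factors, 4 and 3 with each allele's own total and 4 and 2 with DESeq2, and it was 2 and 0 without library 1 and 4 and 2 without library 2. The 3 subunits of the pheromone receptor's G protein were all called toward DBVPG1373. GPA1, the alpha subunit, had 871 and 934 counts for DBVPG1373, against 365 and 180 for CBS432, with a log2 ratio of 1.80 (SE 0.29, adjusted p = 0.00156). STE18, the gamma subunit, had 1331 and 1995, against 573 and 899, with a log2 ratio of 1.18 (SE 0.17, adjusted p = 0.00086). STE4, the beta subunit, had 281 and 254, against 157 and 92, with a log2 ratio of 1.15 (SE 0.36, adjusted p = 0.0352), but missed the threshold with DESeq2 (adjusted p = 0.0681) and without library 1 (adjusted p = 0.115) or library 2 (adjusted p = 0.384). STE6, the exporter of a-factor, had 332 and 235 counts for DBVPG1373, against 31 and 108 for CBS432, with a log2 ratio of 2.20 (SE 0.54, adjusted p = 0.0119), which was 1.12 (adjusted p = 0.257) without library 1. ASG7, an a-specific gene, was the call toward CBS432, with 143 and 156 counts for DBVPG1373, against 499 and 455 for CBS432, and a log2 ratio of -1.67 (SE 0.29, adjusted p = 0.00191; -1.54 and adjusted p = 0.0512 without library 1).

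Flocculin and cell wall genes were called at 14 of 35 NFRs (40%), 10 toward DBVPG1373 and 4 toward CBS432, against 29.8% of all NFRs, at a median count of 352. The split was 9 and 6 with TMM factors, 9 and 5 with each allele's own total and 8 and 4 with DESeq2. The calls became 3 and 0 without library 1 and 5 and 0 without library 2. YGP1, a secreted glycoprotein gene, had 365 and 371 counts for DBVPG1373, against 75 and 62 for CBS432, with a log2 ratio of 2.43 (SE 0.35, adjusted p = 0.00086). BGL2, a cell wall glucanase, had 596 and 620, against 218 and 153, with a log2 ratio of 1.73 (SE 0.27, adjusted p = 0.00132). FLO1, the main flocculin, had 676 and 502 counts for DBVPG1373, against 260 and 355 for CBS432, and a log2 ratio of 0.94 (SE 0.28, adjusted p = 0.0301), which was 0.50 (adjusted p = 0.375) without library 1. FLO1 belongs to a family of similar subtelomeric genes.

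Among genes of phosphate, iron and zinc uptake, 15 of 38 NFRs (39.5%, against 29.8% of all NFRs) were called, 9 toward DBVPG1373 and 6 toward CBS432, with 8 and 7 calls without library 1 or 2. PHO87 and PHO90, both low-affinity phosphate transporters, stood opposite to each other. PHO87, given above, was more open on the DBVPG1373 allele, while PHO90 had 187 and 101 counts for DBVPG1373, against 733 and 945 for CBS432, with a log2 ratio of -2.58 (SE 0.33, adjusted p = 0.000396). VTC1, of the polyphosphate polymerase, had 1579 and 1746 counts for DBVPG1373, against 478 and 683 for CBS432, with a log2 ratio of 1.54 (SE 0.19, adjusted p = 0.000321). FTR1, the iron permease, which shares its NFR with LSM5, had 1538 and 1206, against 2936 and 2998, with a log2 ratio of -1.12 (SE 0.15, adjusted p = 0.000515).

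In sulfate assimilation, 3 of 13 NFRs (23.1%) were called, against 29.8% of all NFRs. MET10, given above, was the 1 toward DBVPG1373, while MET8 (log2 -1.16) and MET1 (-0.58), which make the siroheme of sulfite reductase, were called toward CBS432 and lost that call without library 1 (adjusted p = 0.116 and 0.275) or library 2 (adjusted p = 0.135 and 0.0924). Amino acid synthesis genes were called at 8 of 33 NFRs (24.2%), 6 toward DBVPG1373 and 2 toward CBS432, with 4 calls left without either library. Over all NFRs the share was 29.8%, with 17.5% toward DBVPG1373 and 12.3% toward CBS432. The amino acid split was 5 and 3 with TMM factors or own totals and 5 and 2 with DESeq2. LYS20, a homocitrate synthase, had 1725 and 1558 counts for DBVPG1373, against 318 and 265 for CBS432, with a log2 ratio of 2.50 (SE 0.20, adjusted p = 3.65e-05). HIS5, an aminotransferase of histidine synthesis, had 4999 and 5868, against 1828 and 1665, with a log2 ratio of 1.63 (SE 0.13, adjusted p = 3.65e-05). Of the factors that bind these and related promoters, GCN4 had 124 and 94 counts for DBVPG1373, against 102 and 74 for CBS432 (log2 0.31, adjusted p = 0.612), and CBF1 had 1462 and 1507, against 1537 and 2006 (log2 -0.24, adjusted p = 0.269). RGT1, the repressor of hexose transporter genes, had 61 and 103, against 143 and 191 (log2 -1.06, adjusted p = 0.0739), and GZF3 and TEA1 had no paired NFR. SPT2, a chromatin protein gene, had 269 and 309 counts for DBVPG1373, against 107 and 147 for CBS432, and a log2 ratio of 1.20 (SE 0.34, adjusted p = 0.0241), not called without library 1 (adjusted p = 0.272) or library 2 (adjusted p = 0.144).

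The remaining lists were called at shares of 21.1% to 35.7%, apart from the 3 histone NFRs, against 29.8% of all NFRs. Over all NFRs, 17.5% were called toward DBVPG1373 and 12.3% toward CBS432. The counts of these lists too were smaller with 1 library. Chaperone genes had 4 of 19 NFRs called (3 and 2 without library 1 or 2), all toward DBVPG1373, among them BTN2 with 1393 and 1265 counts for DBVPG1373, against 509 and 468 for CBS432 (log2 1.44, SE 0.19, adjusted p = 0.000551). Glycolytic genes had 5 of 14 called (2 and 1), 1 toward DBVPG1373 and 4 toward CBS432, the largest to hold without either library being ENO2, an enolase, with 1349 and 1286 counts for DBVPG1373, against 2954 and 2457 for CBS432 (log2 -1.03, SE 0.14, adjusted p = 0.000654). Regulatory factors and remodelers had 9 of 27 called (3 toward DBVPG1373 and 6 toward CBS432), which became 4 without library 1 and 1 without library 2. Nitrogen catabolite genes had 7 of 25 called (3 toward DBVPG1373 and 4 toward CBS432), with 1 and 3 without library 1 or 2, and hexose transporters 3 of 11 (1 toward DBVPG1373), with 2 and 1. SEC and VPS genes had 19 of 63 called (12 toward DBVPG1373 and 7 toward CBS432), with 6 and 10 without library 1 or 2. The split of the SEC and VPS genes was 11 and 9 with TMM factors, 10 and 9 with own totals and 8 and 8 with DESeq2. HXT5, a hexose transporter, had 2328 and 2368 counts for DBVPG1373, against 882 and 801 for CBS432 (log2 1.48, SE 0.16, adjusted p = 0.000176). VPS35, of the retromer, had 2121 and 1633, against 803 and 610 (log2 1.41, SE 0.17, adjusted p = 0.00028). The histone NFRs were HTB1, an H2B gene, at a log2 ratio of 1.52, HHO1, the linker histone, whose NFR also serves NAN1, with 1103 and 1043 counts for DBVPG1373, against 1951 and 2369 for CBS432 (adjusted p = 0.00141, or 0.059 without library 2), and 1 that was not called.

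**Figure D3:**
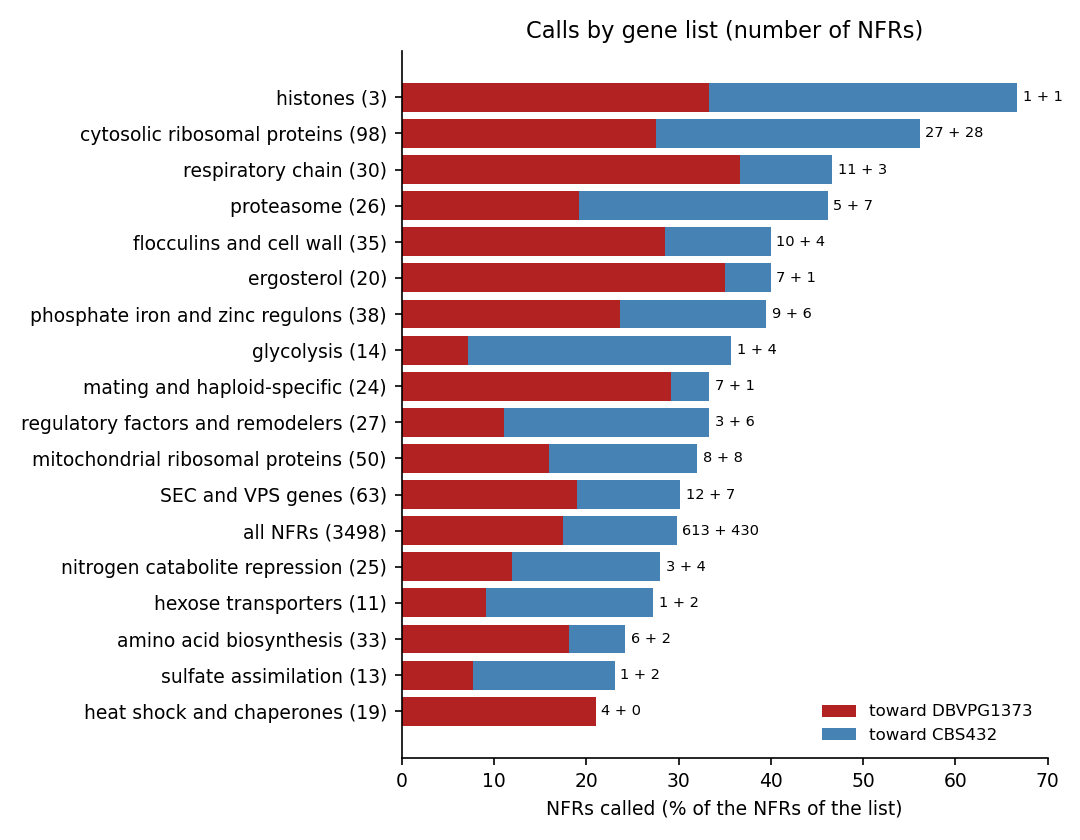
Share of NFRs in each gene list called toward DBVPG1373 or toward CBS432, in percent of the list's NFRs, with all 3498 NFRs beside them. Cytosolic ribosomal protein NFRs were called most often among the lists of more than 3 NFRs (56.1%) and heat shock and chaperone NFRs least often (21.1%).

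The hybrid was next set against its parents, to ask where the allele ratio in 1 nucleus departed from the ratio between the haploids. No NFR was called (0 of 3498, 0%) by edgeR's test of the interaction, and the lowest adjusted p was 0.155. At an unadjusted p under 0.05 there were 160 NFRs, against 174.9 for 5% of the tests, and DESeq2 gave 161 such NFRs and 3 calls. The median SE of the difference was 0.45 on the log2 scale, and the size needed for a call lay far above it. At ZRT1 a difference of 2.26 with an SE of 0.33 was not called. The lack of calls therefore does not show that the ratios were the same. The median difference between hybrid and parents was 0.16 with column totals for the haploids and the sum of both alleles for the hybrid. With TMM factors it was 0.00. The CBS432 haploids were counted at the sites used for DBVPG1373.

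Of the 1043 called NFRs, 1014 (97.2%) had the same direction in the parents, against 79.5% of all NFRs, and 913 had it in both parental replicates. Their median log2 ratio, signed by the hybrid, was 1.12 in the hybrid and 0.91 in the parents. NFRs called in the hybrid were chosen for their size there, so a lower value in other libraries cannot be told apart from that choice. Across all NFRs, the hybrid and parental log2 ratios correlated with Pearson's r of 0.835 (Spearman's rho 0.796).

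The 3 NFRs that DESeq2 called were described for their values, since edgeR called none of them. ZRT1, the high-affinity zinc transporter (chromosome VII, 20536-20815), had 1664 and 1862 counts for DBVPG1373, against 702 and 612 for CBS432, in the hybrid (log2 1.42, SE 0.18, adjusted p = 0.000396), and 1398 and 1880 counts in the DBVPG1373 haploids, against 2819 and 2636 in the CBS432 haploids (log2 -0.80). The difference was 2.26 (SE 0.33, adjusted p = 0.155) in edgeR and 2.09 (adjusted p = 0.000133) in DESeq2, and it passed in edgeR without parental replicate 2 (2.62, adjusted p = 0.0186). The more accessible side at ZRT1 was thus S. cerevisiae in the hybrid and S. paradoxus between the haploids. AQY2, a water channel gene, had 975 and 926 counts for DBVPG1373, against 593 and 654 for CBS432, in the hybrid, and 534 and 572 in the DBVPG1373 haploids, against 1338 and 1311 in the CBS432 haploids (difference 1.96, SE 0.33, adjusted p = 0.279 in edgeR and 0.00323 in DESeq2). YHB1, a flavohemoglobin gene, ran the other way, with 128 and 127 counts for DBVPG1373, against 200 and 251 for CBS432, in the hybrid, and 406 and 569 in the DBVPG1373 haploids, against 111 and 155 in the CBS432 haploids (difference -2.60, SE 0.50, adjusted p = 0.495 in edgeR and 0.000745 in DESeq2).

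**Figure D4:**
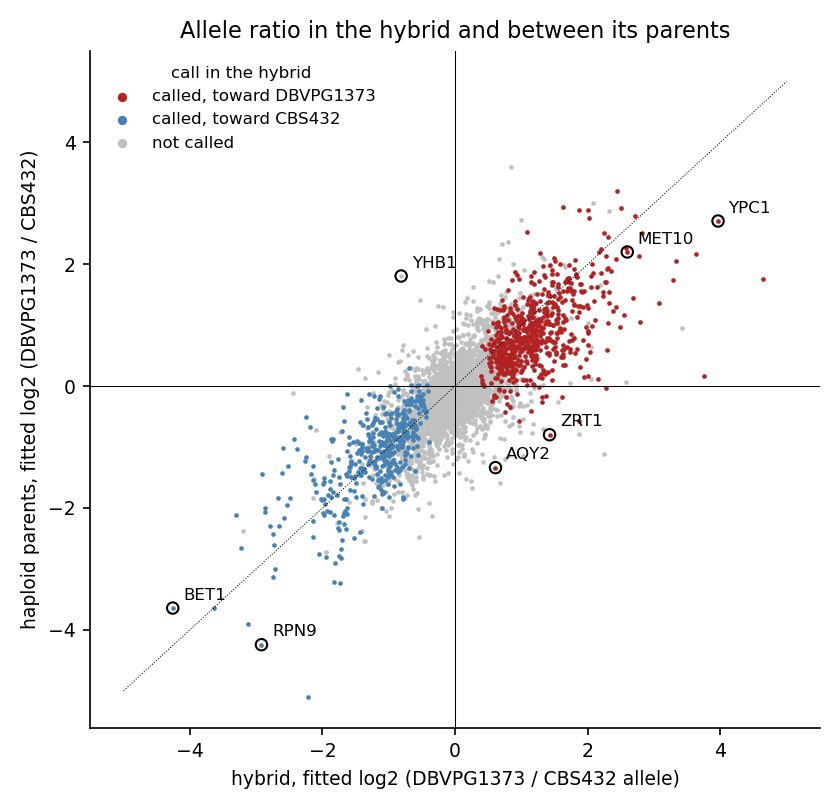
Fitted log2 ratio of the DBVPG1373 allele to the CBS432 allele in the hybrid and the log2 ratio of DBVPG1373 to CBS432 haploids, 1 point per NFR, with a dotted line at equality and 7 NFRs ringed and named. Called NFRs follow the line, while ZRT1, AQY2 and YHB1 lie off it on opposite sides of zero; 5 NFRs beyond 6 on the log2 scale are not drawn.

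The hybrid was last set against the UWOPS05_217_3-CBS432 hybrid, which shares the CBS432 genome and differs in the S. cerevisiae strain. The libraries of the 2 hybrids are separate samples. By the same test 866 NFRs (24.8%) carried a cis effect in the other hybrid, and 580 were called in both, which is 55.6% of the DBVPG1373-CBS432 calls and 67.0% of the other hybrid's. The p-values of the 2 fits were not on a common scale, so these numbers of calls are not like for like. CUS1 had a log2 ratio of 2.82 (SE 0.19, adjusted p = 1.26e-05) in this hybrid. In the other it had a smaller ratio of 2.72 with a larger SE of 0.27, yet a lower adjusted p of 1.52e-20. Of these 580, 575 had the same direction. Of all 1043 DBVPG1373-CBS432 calls, 999 (95.8%) had the same direction in the other hybrid, against 78.2% of all NFRs, and their median log2 ratio there was 0.87 when signed by this hybrid, against 1.12 in this hybrid. YPC1, the largest difference toward DBVPG1373, had 632 and 687 counts for the UWOPS05_217_3 allele, against 97 and 44 for CBS432, so the same promoter was more open on S. cerevisiae in both crosses.

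The allele ratio differed between the hybrids at 15 of 3498 NFRs (0.429%), 12 lower and 3 higher in the DBVPG1373-CBS432 hybrid. An unadjusted p under 0.05 was reached by 282 NFRs, against 174.9 for 5% of the tests. Without the library block 5 were called. Fits with a library left out gave p-values on unlike scales, so their calls cannot be set against each other. At MAL13 the difference was -11.28 without library 1 of this hybrid and -11.14 without library 1 of the other. The adjusted p-values of these like differences were far apart. Only MAL13, YIL014C-A and YJL218W were called in every such fit. Of the 15, 5 turned on counts at or near 0. MAL13, YIL014C-A, YJL218W and the NFR next to THI5 had no DBVPG1373 counts, as given above. AQY3, beside THI5, had 12 and 6 counts for DBVPG1373, against 33 and 12 for CBS432, in this hybrid, and 104 and 80 for UWOPS05_217_3, against 0 and 2 for CBS432, in the other, so at AQY3 it was the CBS432 allele that was near 0.

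At the other 10 NFRs both alleles had counts in every library of both crosses. Among the 15, the NFR next to THI5, AQY3, YLR326W, AAH1 and RPS12 were named after their values were seen. FLO1 was more open on S. cerevisiae in both crosses and less so in this hybrid, with 676 and 502 counts for DBVPG1373, against 260 and 355 for CBS432, and 1777 and 2971 for UWOPS05_217_3, against 310 and 449 for CBS432 (difference -1.69, SE 0.32, adjusted p = 0.00723). YPK9, a vacuolar ATPase gene, had 322 and 158 counts for DBVPG1373, against 461 and 281 for CBS432, and 894 and 549 for UWOPS05_217_3, against 389 and 147 for CBS432 (difference -2.21, SE 0.41, adjusted p = 0.006). MRPL3, of the mitochondrial ribosome, had 228 and 138, against 199 and 78, in this hybrid, and 582 and 290, against 91 and 34, in the other (difference -2.37, SE 0.54, adjusted p = 0.0356). The NFR of URA7 and MRPL16, given above, had 790 and 720 counts for UWOPS05_217_3, against 1844 and 2354 for CBS432, in the other hybrid, and so favoured CBS432 in both crosses and more in this hybrid (difference -1.28, SE 0.27, adjusted p = 0.0176). YLR326W differed in the same direction, with 1014 and 1097 counts for DBVPG1373, against 2745 and 2462 for CBS432, and 1458 and 1586 for UWOPS05_217_3, against 1744 and 1417 for CBS432, although 1 library of the other hybrid favoured UWOPS05_217_3 (difference -1.25, SE 0.25, adjusted p = 0.0108). YIR016W had 485 and 514 counts for DBVPG1373, against 312 and 511 for CBS432, and 140 and 38 for UWOPS05_217_3, against 356 and 278 for CBS432 (difference 2.37, SE 0.51, adjusted p = 0.0197).

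Some promoters leaned to different species in the 2 crosses. YHL041W had 3596 and 4357 counts for DBVPG1373, against 2373 and 2577 for CBS432, in this hybrid, and 2450 and 2217 for UWOPS05_217_3, against 3438 and 3083 for CBS432, in the other (difference 1.16, SE 0.20, adjusted p = 0.00319). RPL8A, a ribosomal protein gene, had 4333 and 5318, against 2729 and 2904, in this hybrid, and 1904 and 2115, against 2250 and 2567, in the other (difference 1.03, SE 0.21, adjusted p = 0.0108). All 4 libraries of these 2 NFRs favoured the side given, DBVPG1373 in this hybrid and CBS432 in the other, but the lean of RPL8A in the other hybrid was not called (log2 -0.26, adjusted p = 0.324). AAH1, an adenine deaminase gene, had 1674 and 1072 counts for DBVPG1373, against 2027 and 2236 for CBS432, and 2155 and 1805 for UWOPS05_217_3, against 1224 and 1227 for CBS432 (difference -1.35, SE 0.27, adjusted p = 0.0108). RPS12, another ribosomal protein gene, had 954 and 766, against 1297 and 1317, in this hybrid, and 1608 and 1440, against 1071 and 788, in the other (difference -1.34, SE 0.28, adjusted p = 0.017). Within this hybrid alone, the cis effects of AAH1 (log2 -0.67), YHL041W (0.68) and RPL8A (0.77) were not called without library 2 (adjusted p = 0.589, 0.1 and 0.0693), and that of RPS12 (-0.61) without library 1 or 2 (adjusted p = 0.0932 and 0.389).

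**Figure D5:**
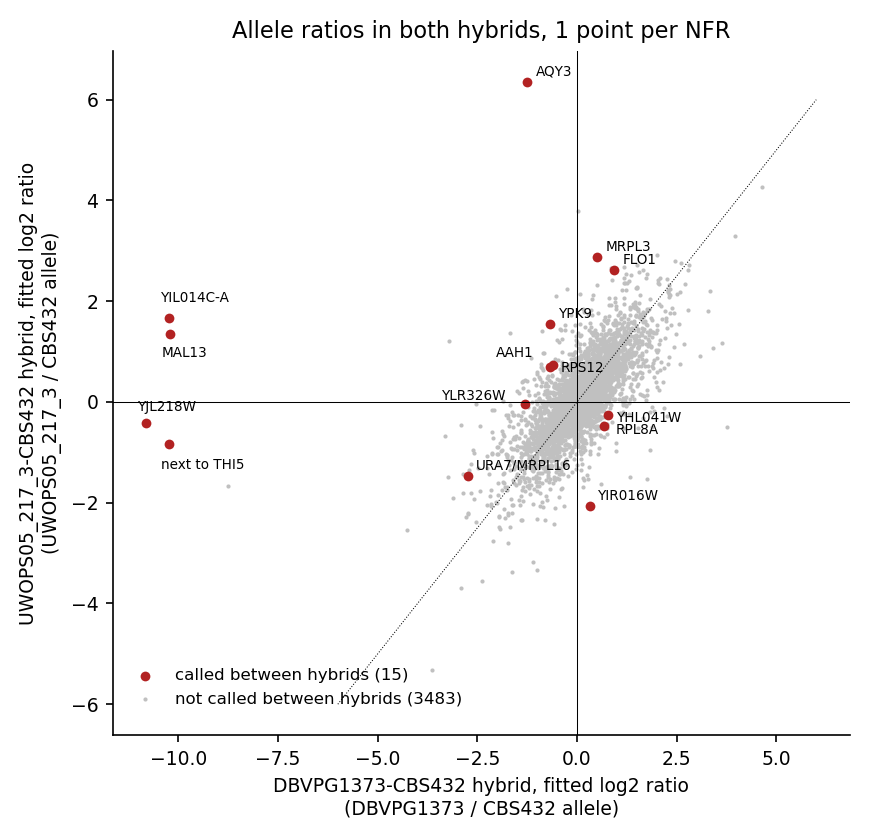
Fitted log2 ratio of the S. cerevisiae allele to the CBS432 allele in the DBVPG1373-CBS432 hybrid and in the UWOPS05_217_3-CBS432 hybrid, 1 point per NFR. The 15 NFRs whose ratio differed between the hybrids are named, and the other 3483 scatter about the line of equality.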

How the data were processed

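Raw counts as deposited were used, which the authors summed over each NFR, 1 table per haploid library and 1 per allele of a hybrid library. Per the methods, reads were mapped with bwa, hybrid reads to both genomes together, indel sites were left out, and NFRs with ambiguous alignment, poorly mapping simulated reads or unequal genomic DNA were removed. The methods do not name the strain of the genomic DNA sample. The 5 NFRs without DBVPG1373 counts were still in the set after these filters. A read over several sites may count more than once. The submitters' processing notes name sacCer3, BWA and CASAVA, with no version, and coordinates are the files' own.

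Cis effects were fitted with edgeR 4.0.16 in R 4.3.3 on the 4 allele columns, with the library as a block and the sum of both alleles as library size, and Benjamini-Hochberg adjustment over all 3498 NFRs at 0.05. The comparison with the parents took column totals as depth for the haploids and the sum of both alleles for the hybrid. It blocked haploid libraries by replicate number, as the study's model does, and the comparison of hybrids used 8 allele columns. The edgeR fits moderated the spread of each NFR toward that of all NFRs, so SE and p did not rest on its own libraries alone. SE was the log2 ratio over the root of F, and library log2 ratios had a pseudocount of 0.5. Alternatives were DESeq2 1.42.0, TMM factors, own totals, count minimums of 10 and 100, no block, a threshold of 0.01 and leaving out libraries. The tests were also run on simulated counts, whose outcome is not given here and vouches for none of the results.

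NFRs were named by a rule: the 10 largest called cis effects in each direction with a mean count of at least 100, the 5 largest called differences in each direction of the other tests, up to 3 called members per gene list, and genes named for the whole series or by motif in the study. Further list members are examples, chosen after their values were seen. Members, lists and rule were chosen with earlier results of these data known. RNA tables of this cross were not used, since 1890 of 5066 genes had 1 value in all 8 tables. A motif search was not run here. Deviations of same-numbered haploid libraries correlated with r of 0.264 over NFRs, and those of hybrid and parental ratios with -0.043.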

Additional observations from a re-analysis of the deposited data

Results flagged for a closer look

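The allele ratio differed between the hybrids, by edgeR's test of the interaction of allele and hybrid, at 15 NFRs, whose counts are given in the report. The differences are this hybrid's log2 ratio minus that of the UWOPS05_217_3-CBS432 hybrid. They were negative, so lower in the DBVPG1373-CBS432 hybrid, at MRPL3 (-2.37), YPK9 (-2.21), FLO1 (-1.69), AAH1 (-1.35), RPS12 (-1.34), URA7/MRPL16 (-1.28) and YLR326W (-1.25), and positive at YIR016W (2.37), YHL041W (1.16) and RPL8A (1.03). The fitted differences of YIL014C-A (-11.71), MAL13 (-11.37), YJL218W (-10.19), the NFR next to THI5 (-9.21) and AQY3 (-7.63) involve a column at or near 0, so their size depends on how the model treats a count of 0 and is no measure of fold. With 2 libraries in each group, no single library could be tested for standing apart.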

How the results depend on the processing

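The 1043 cis effects became 518 at an adjusted p under 0.01 and 412 to 479 with 1 library of the hybrid left out, where the lone library was assumed to vary like those of the other hybrid. They were 1069 with TMM factors, 1032 with each allele's own total, 910 with DESeq2, 1108 and 1098 with a mean count of at least 10 or 100, and 1012 with the spread shared with the other hybrid, and of these 955, 933, 884, 1040, 989 and 983 were among the 1043. None of the 81 named cis effects past the threshold changed direction under any alternative run. Of these 81, DESeq2 left 8 uncalled, TMM factors 2, own totals 2, the threshold of 0.01 20, and leaving out library 1 or 2 23 or 24. Against the parents, DESeq2 called 3 NFRs, and 0 to 1 were called with a replicate left out. Between the hybrids, 8 NFRs passed an adjusted p under 0.01, and 3 to 14 were called with a library left out, 3 to 11 of them among the 15.

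The library block pairs the 2 alleles of 1 tube. With no replicate block, 816 cis effects were called, 812 of them among the 1043, and 5 named cis effects were lost. Without it, 5 NFRs differed between the hybrids, and with no replicate block in the parents 0 differed between hybrid and parents. The causes of these changes were not tested. Depth limits the low NFRs, since 488 had a mean count under 100 and 24 had no counts at all in this hybrid.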

Other observations

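RNA was counted per allele in the UWOPS05_217_3-CBS432 hybrid, which allows a side-by-side description for genes whose promoters were called in the DBVPG1373-CBS432 hybrid. It comes from another S. cerevisiae strain, so it is not a readout of the same alleles. The median RNA log2 ratio of the S. cerevisiae allele to the CBS432 allele was -0.04 for 613 genes with an NFR called toward DBVPG1373, -0.06 for 414 called toward CBS432 and -0.04 for 2406 not called. These medians lie close together beside quartiles of -0.30 and 0.23 in the first group and -0.31 and 0.19 in the second.

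Single genes went either way. YPC1, whose promoter was more open on S. cerevisiae in both hybrids, had RNA log2 ratios of 2.19 and 2.34 in the 2 RNA libraries, and YOR008C-A had 3.27 and 2.44. HMG2 was also higher on the S. cerevisiae allele (0.83 and 0.55). HXT5 had RNA ratios of -2.32 and -2.07, below 0, although its NFR favoured S. cerevisiae in both hybrids (FAIRE log2 ratios of 1.48 in the DBVPG1373-CBS432 hybrid and 1.34 in the other). MET10 had -0.33 and -0.24 and PHO87 -0.29 and -0.29, beside NFRs that favoured S. cerevisiae. BET1, the largest difference toward CBS432 with counts on both alleles, had -0.17 and -0.15. These genes were picked from a table of 77 after their values were seen.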
